A study of Mus musculus with 3 samples.

Results

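The enzymes that add and remove acetyl groups on histones, and a small family of proteins that bind them, were followed through 3 oocyte libraries of female ICR mice at 8 weeks of age. The list of 31 genes was fixed by name and held 10 writers (histone acetyltransferases), 18 erasers (11 histone deacetylases and 7 sirtuins) and 3 readers of the BET family. Rows under 30 of these names were found among 23376 gene names in all, and no value is given for Sirt7, whose name was on none of the rows used here. The 30 genes were spread over 48 table rows, and the rows of a gene were summed. ICR is an outbred strain. One library came from unexposed controls, 1 from a low PCB118 dose and 1 from a high PCB118 dose. PCB118 is a dioxin-like polychlorinated biphenyl. By the series title the mothers were exposed while pregnant and the question is how oocytes of the offspring mature. The labels give no amounts, and how many animals or oocytes entered a library is not given in the sources used here.

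Acetyl groups on histone tails are laid down by acetyltransferases from acetyl-CoA, are removed by zinc-dependent deacetylases and by NAD-dependent sirtuins, and are bound by bromodomains. In oocytes, histones are acetylated during growth and widely deacetylated when meiosis resumes, and several sirtuins act outside the nucleus on metabolic enzymes. BET proteins, which carry tandem bromodomains, connect acetylated chromatin with transcription, and Brdt is best known from male germ cells.

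Levels are in FPKM (mapped fragments, divided by transcript length and library size), so that they can be set side by side between genes. Log2 ratios are of FPKM + 1, which shrinks the ratios of low genes, and where a pair of ratios is given for a gene it is low dose over control, then high dose over control. A gene counted as expressed where its 3 libraries averaged 1 FPKM or more, which held for 12151 names, and as higher or lower where the log2 ratio reached 1 or -1. This sets a size and tests nothing: with 1 library per group there is no replicate check, no p-value is given, and the values describe these libraries and not the conditions. All 3 libraries carried oocyte transcripts, with 11 of 12 oocyte markers expressed and a summed level of 7908 FPKM in control, 6804 FPKM at the low dose and 7790 FPKM at the high dose. Dppa3 made up most of that sum, Ddx4 had no row, and 3 of the markers passed the rule defined above. Against control, 1 of the 11 was higher and 1 lower at the low dose (9.09% each), beside 14.5% and 5.84% of all expressed genes. At the high dose 1 was higher (9.09%) and 2 were lower (18.2%), beside 9.51% and 5.18%. Gdf9, an oocyte growth factor, was at 661 FPKM in control, 38.5 FPKM at the low dose and 193 FPKM at the high dose (log2 ratios -4.06 and -1.77). Bmp15, its paralog, was at 4.27 FPKM in control, 18.7 FPKM at the low dose and 15.8 FPKM at the high dose (1.90 and 1.67), and Figla, an oocyte transcription factor, passed at the high dose (-1.18). Of 12 granulosa and cumulus markers 4 were expressed, and the list summed to 25.1 FPKM in control, 27.8 FPKM at the low dose and 23.8 FPKM at the high dose. Foxl2, Amh, Ptx3 and Tnfaip6 of that list had no row, Has2 was listed at 0 in control and at the low dose, and the expressed ones went different ways. Nr5a2 was at 17.0 FPKM in control, 13.2 FPKM at the low dose and 10.6 FPKM at the high dose, and Fshr at 5.61 FPKM in control, 9.95 FPKM at the low dose and 9.05 FPKM at the high dose. Inha, at 0.38 FPKM in control, 2.55 FPKM at the low dose and 1.03 FPKM at the high dose, passed the rule at the low dose (1.36), and Cyp19a1 was at 1.42 FPKM in control, 1.32 FPKM at the low dose and 2.22 FPKM at the high dose. Of 13 markers of theca, stroma, blood and leukocytes 1 was expressed (Pecam1), and the list summed to 3.92 FPKM in control, 4.97 FPKM at the low dose and 4.50 FPKM at the high dose. The part of such cells in the results was not tested, and in bulk libraries fewer cells of a type and less RNA per cell cannot be told apart.

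Of the 30 genes with rows, 23 were expressed, namely 9 writers, 11 erasers and 3 readers. Several rows were summed for 11 of these 23 (47.8%), beside 34.8% of all expressed genes. At least 1 FPKM was reached in all 3 libraries by 19 genes, in 1 or 2 libraries by 6 and in none by 5. Of the expressed genes, Ep300, Hdac3 and Hdac4 were below 1 FPKM in control and passed through an exposed library. Sirt2, at 0.27 FPKM at the high dose, passed through the control and low dose libraries. So counts over the expressed genes are a description only. The same holds for the partner lists below, where Mier1, Usp22 and Msl2 were below 1 FPKM in control. In at least 1 pair of libraries 7 of the 23 passed the rule, namely the writers Ep300, Kat6a and Kat7 and the erasers Hdac9, Sirt2, Sirt4 and Sirt5. The share of all expressed genes past it in any pair was not counted, so 7 of 23 cannot be called many or few. Shares for each pair are given below, beside those of all expressed genes.

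**Figure D1:**
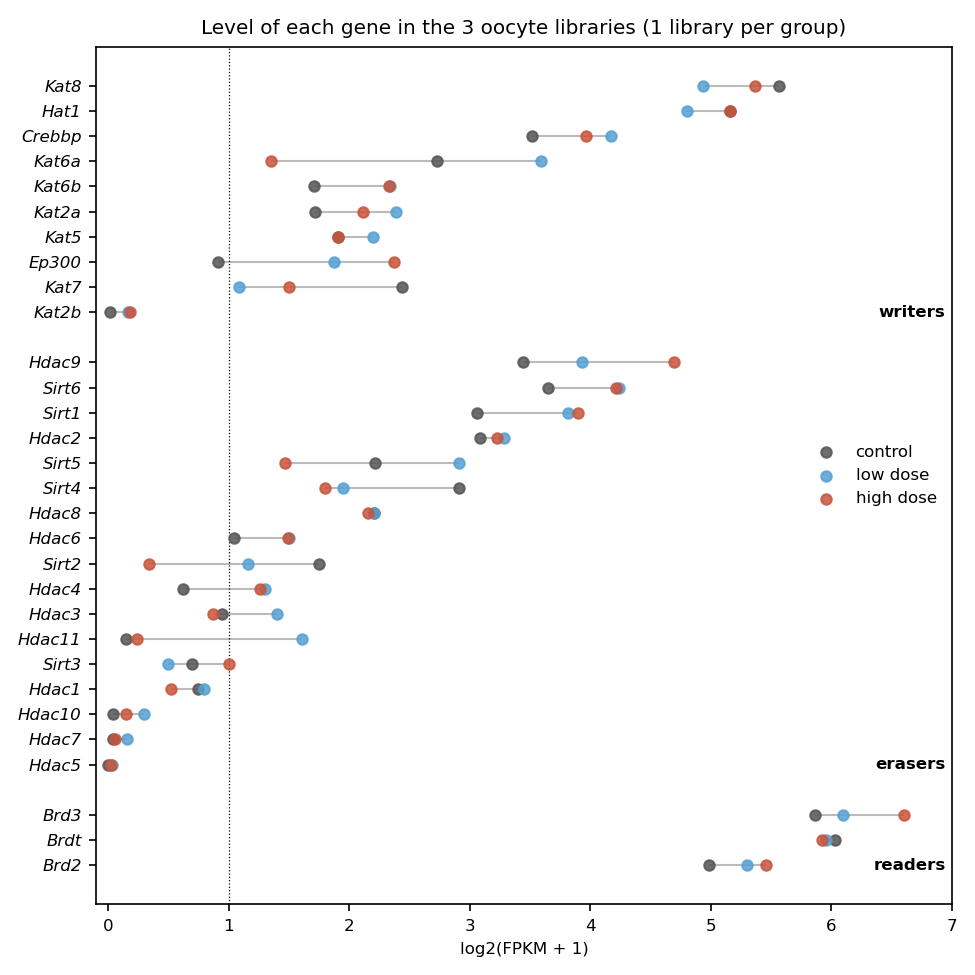
Level of each of the 30 genes with rows as log2(FPKM + 1), with 1 point per library (control, low dose and high dose) and the dotted line at 1 FPKM. The readers and the writers Kat8 and Hat1 stand highest in every library, and the widest spans between libraries are those of Kat6a, Ep300, Hdac11, Sirt2 and Sirt5.

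Since dioxin-like compounds act on the aryl hydrocarbon receptor, the start regions of the genes past the rule were read for GCGTG, the core of the element that this receptor binds with its partner Arnt. RefSeq windows (GRCm38.p6) from 250 bases before to 50 bases after a start were used for 27 of the 31 genes. None was used for Hdac1, Hdac3, Hdac10 or Kat6a. GCGTG on either strand was found in 12 of 39 windows of the list (30.8%), belonging to 12 of the 27 genes, and in 32.4% of all 32851 windows. TATAAA on either strand was found in 2 of the 39 windows (5.13%), those of Hdac8 and Hdac9, and in 13.6% of all windows. The windows of the list held a median of 20 CG pairs, against 7 over all windows. A match describes letters and not a bound site. The 6 windows shown are those of the genes past the rule, 5′ to 3′ on the strand of the gene, with GCGTG or its reverse complement CACGC, and TATAAA or its reverse complement, in capitals.
Ep300, chr15:81585964-81586263, plus strand: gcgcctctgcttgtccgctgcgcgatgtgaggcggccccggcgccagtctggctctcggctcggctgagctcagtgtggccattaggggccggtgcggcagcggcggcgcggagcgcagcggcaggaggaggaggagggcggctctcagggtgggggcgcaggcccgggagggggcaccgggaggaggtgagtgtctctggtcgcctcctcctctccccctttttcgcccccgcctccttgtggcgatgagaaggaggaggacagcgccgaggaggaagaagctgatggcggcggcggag
Kat7, chr11:95310197-95310496, minus strand: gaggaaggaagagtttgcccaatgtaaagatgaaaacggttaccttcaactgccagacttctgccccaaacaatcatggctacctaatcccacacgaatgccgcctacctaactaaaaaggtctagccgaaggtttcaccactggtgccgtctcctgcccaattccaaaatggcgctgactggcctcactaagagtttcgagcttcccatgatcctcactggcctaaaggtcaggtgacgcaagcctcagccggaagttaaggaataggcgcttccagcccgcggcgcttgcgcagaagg
Hdac9, chr12:34917046-34917345, minus strand: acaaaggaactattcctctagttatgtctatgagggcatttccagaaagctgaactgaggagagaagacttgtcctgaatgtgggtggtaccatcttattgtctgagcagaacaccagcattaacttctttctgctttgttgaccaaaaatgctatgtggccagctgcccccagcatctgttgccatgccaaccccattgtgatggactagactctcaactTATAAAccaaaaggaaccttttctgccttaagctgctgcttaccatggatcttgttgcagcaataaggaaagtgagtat
Sirt2, chr7:28766502-28766801, plus strand: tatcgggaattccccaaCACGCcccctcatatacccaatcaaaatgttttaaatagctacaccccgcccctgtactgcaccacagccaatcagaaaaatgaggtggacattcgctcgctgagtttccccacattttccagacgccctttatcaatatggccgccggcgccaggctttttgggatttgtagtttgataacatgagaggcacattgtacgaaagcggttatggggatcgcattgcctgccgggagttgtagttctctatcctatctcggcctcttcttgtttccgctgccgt
Sirt4, chr5:115484248-115484547, minus strand: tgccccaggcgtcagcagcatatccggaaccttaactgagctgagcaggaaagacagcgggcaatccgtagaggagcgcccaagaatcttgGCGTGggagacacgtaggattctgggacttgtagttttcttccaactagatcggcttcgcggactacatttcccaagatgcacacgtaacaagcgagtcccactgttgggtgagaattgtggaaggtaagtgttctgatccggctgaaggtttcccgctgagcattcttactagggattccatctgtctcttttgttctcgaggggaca
Sirt5, chr13:43365285-43365584, plus strand: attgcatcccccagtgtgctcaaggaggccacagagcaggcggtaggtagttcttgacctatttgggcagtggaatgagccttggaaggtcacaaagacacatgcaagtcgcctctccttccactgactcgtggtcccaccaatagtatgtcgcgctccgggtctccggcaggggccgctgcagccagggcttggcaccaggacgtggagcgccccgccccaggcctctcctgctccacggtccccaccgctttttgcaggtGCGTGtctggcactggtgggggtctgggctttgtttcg
GCGTG occurs 1 time in the windows of the erasers Sirt2, Sirt4 and Sirt5, in the reverse orientation in Sirt2. It is absent from those of Ep300, Kat7 and Hdac9. The Hdac9 window holds TATAAA and no CG pair, while the Ep300 window holds 30 CG pairs. A further start of Hdac9, 34528840 to 34529139 on chromosome 12, holds 3 CG pairs and neither motif. The share of windows with GCGTG over the list lies near that of all windows, which hold fewer CG pairs (a median of 7, against 20). GCGTG itself holds a CG pair, and windows alike in CG pairs were not compared. A share by gene over all genes was not counted, so the 12 of 27 genes have no background beside them.

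Among the writers, Kat8 and Hat1 were the most abundant in all 3 libraries. Kat8, the MYST enzyme that acetylates H4K16, was at 46.3 FPKM in control, 29.7 FPKM at the low dose and 40.2 FPKM at the high dose. Hat1, which acetylates newly made histone H4 before it is deposited, was at 34.8 FPKM in control, 27.0 FPKM at the low dose and 34.8 FPKM at the high dose. Control stood highest for Kat8, the low dose library stood lowest for both, and the log2 ratios at the low dose were -0.63 for Kat8 and -0.36 for Hat1, short of the rule. Both rest on 1 row each, and by the reads estimated below counting error alone spans 28.1 to 31.3 FPKM for Kat8 at the low dose against 44.5 to 48.1 FPKM in control.

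Kat7, also called HBO1, is the MYST enzyme that acetylates H3 and H4 around replication origins. It was the only expressed gene of the list past the rule at the low dose. It was at 1.12 FPKM at the low dose, against 4.41 FPKM in control, and its log2 ratio was -1.35. At the high dose it was at 1.83 FPKM, with a log2 ratio to control of -0.93, just short of the rule. Kat7 lies on chromosome 11, 95274259 to 95310246, minus strand (GRCm38), and rests on 1 row. About 545 reads in control, 111 with the low dose and 205 with the high dose stand behind it, and their exact Poisson 95% intervals, which cover counting error only, run from 4.05 to 4.80 FPKM in control, from 0.921 to 1.35 FPKM at the low dose and from 1.59 to 2.10 FPKM at the high dose. Control lies above both exposed libraries. The intervals rest on rough read numbers and say nothing of the spread between samples.

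The paralogous coactivators Ep300 and Crebbp acetylate histones H3 and H4 at enhancers and promoters. Ep300 was at 0.88 FPKM in control, 2.67 FPKM at the low dose and 4.16 FPKM at the high dose, and control stood lowest. Its log2 ratios to control were 0.96 at the low dose, just short of the rule, and 1.46 at the high dose. Ep300 lies on chromosome 15, 81585351 to 81652077, plus strand, and had 2 rows. The larger row was at 0.88 FPKM in control, 2.67 FPKM at the low dose and 2.19 FPKM at the high dose. The other was absent from the control table, listed at 0 at the low dose and at 1.97 FPKM at the high dose, so that the high dose ratio of the larger row by itself was 0.76 (log2), short of the rule. Crebbp was at 10.4 FPKM in control, 17.0 FPKM at the low dose and 14.6 FPKM at the high dose, on a single row, with log2 ratios of 0.66 and 0.46 at the low and high dose. Ep300 made up 7.80% of the summed FPKM of this pair in control, 13.6% with the low dose and 22.1% with the high dose.

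Kat6a and Kat6b, the MYST enzymes that acetylate H3 in complexes with Brpf scaffold proteins, differed in their course when rows were summed. Kat6a was at 5.64 FPKM in control, 11.1 FPKM at the low dose and 1.55 FPKM at the high dose, with log2 ratios to control of 0.86 and -1.38. Between the exposed libraries its log2 ratio, high over low dose, was -2.24. Kat6a lies on chromosome 8, 22859535 to 22943259, plus strand. Its larger row was at 4.30 FPKM in control, at 8.60 FPKM at the low dose and listed at 0 at the high dose, whereas the other row was at 1.33 FPKM in control, 2.47 FPKM at the low dose and 1.55 FPKM at the high dose. With the row that was above 0 in all 3 libraries alone, the log2 ratio at the high dose was 0.13, of the opposite sign. Kat6b was at 2.27 FPKM in control, 4.06 FPKM at the low dose and 4.02 FPKM at the high dose, the exposed libraries above control, with log2 ratios of 0.63 and 0.62. Of its 2 rows, the larger gave 0.26 and 0.38 and the smaller 0.89 and 0.70. The row of Kat6a above 0 in all 3 libraries gave 0.57 and 0.13, of the same sign as Kat6b.

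Kat2a (GCN5), the catalytic subunit of SAGA and ATAC, was at 2.28 FPKM in control, 4.22 FPKM at the low dose and 3.34 FPKM at the high dose. Its paralog Kat2b (PCAF) was at 0.011 FPKM in control, 0.123 FPKM at the low dose and 0.132 FPKM at the high dose, on about 2 reads in control, 16 with the low dose and 19 with the high dose. Kat5, the catalytic subunit of the TIP60 complex, was at 2.74 FPKM in control, 3.59 FPKM at the low dose and 2.75 FPKM at the high dose. The gene overlaps Rnaseh2c on the opposite strand by 4006 bases, and the strand setting of the counting is not given in the sources used here. Neither Kat2a nor Kat5 passed the rule in any pair. The same limit of strand holds for Kat8, which shares 122 bases with Prss8, for Hdac8, which shares 80860 bases with the noncoding gene Gm14858, and for Sirt3, which shares 342 bases with Psmd13 and 707 bases with Ric8a, all on opposite strands. Processed pseudogenes lie on the opposite strand within Hat1, Kat2b and Brdt, and Hdac11 shares 544 bases with the antisense gene Gm14573.

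**Figure D2:**
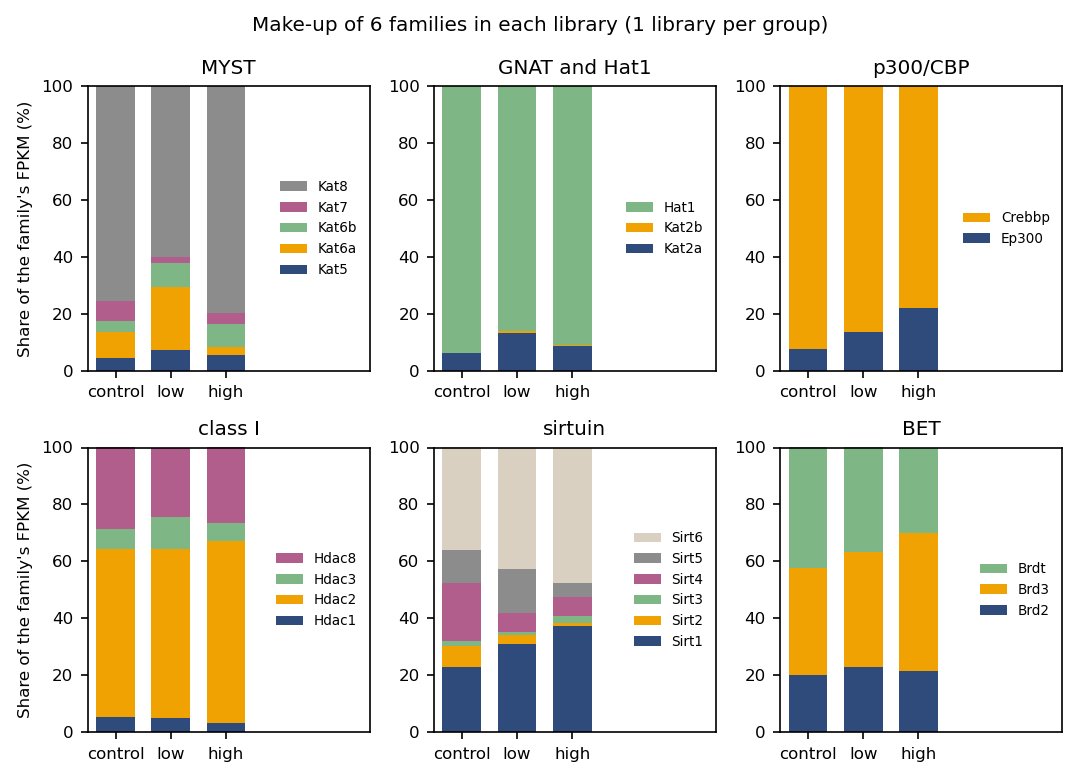
Share of each gene in the summed FPKM of its family, in percent, for 6 families (3 of writers, 2 of erasers and the BET readers) and the 3 libraries. Kat8, Hat1 and Crebbp hold most of their families in every library, Hdac2 most of class I, and the share of Sirt4 is 20.4% in control, 6.83% with the low dose and 6.69% with the high dose.

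Class I deacetylases, of which Hdac1 and Hdac2 work in the Sin3, NuRD and CoREST complexes, were led by Hdac2. It was at 7.47 FPKM in control, 8.77 FPKM at the low dose and 8.36 FPKM at the high dose, and its share of the summed FPKM of the class was 58.9% in control, 59.5% with the low dose and 63.9% with the high dose. Hdac1, its close paralog, was at 0.68 FPKM in control, 0.73 FPKM at the low dose and 0.43 FPKM at the high dose, below the expression filter. The low level rests on about 48 reads in control, 42 with the low dose and 28 with the high dose. Hdac8 was at 3.61 FPKM in control, 3.61 FPKM at the low dose and 3.46 FPKM at the high dose, the closest values of any expressed gene of the list at the low dose. Hdac3, the enzyme of the NCoR complex, was at 0.92 FPKM in control, 1.64 FPKM at the low dose and 0.82 FPKM at the high dose. The low dose library alone stood above 1 FPKM for it, and no class I gene passed the rule in any pair.

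Class IIa deacetylases are signal-dependent corepressors with weak catalytic activity of their own. Hdac9 was the only abundant one, with 94.6% of the summed FPKM of the class in control, 89.9% with the low dose and 94.5% with the high dose. It was at 9.85 FPKM in control, 14.2 FPKM at the low dose and 24.9 FPKM at the high dose, with log2 ratios to control of 0.49 and 1.26, so that the high dose library passed the rule. The gene spans 34047580 to 34917095 on chromosome 12, minus strand, and had 6 rows, whose positions within it are not in the tables. The largest row was at 6.49 FPKM in control, 6.61 FPKM at the low dose and 8.40 FPKM at the high dose, so that its own log2 ratio for the high dose was 0.33. A second row, at 0.39 FPKM in control, 2.14 FPKM at the low dose and 10.4 FPKM at the high dose, held most of the difference. The annotated genes Gm47357 and 4921508M14Rik and the processed pseudogene Gm18025 lie within Hdac9 on its strand. Annotated genes on the same strand also overlap Kat6a (Gm45555, 2602 bases), Crebbp (Gm37186, 2861 bases) and Hdac4 (Gm37036, 2506 bases). The part of these overlapping genes was not tested. Hdac4 was at 0.53 FPKM in control, 1.47 FPKM at the low dose and 1.40 FPKM at the high dose, with log2 ratios of 0.69 and 0.65. Hdac5 was listed at 0 in control and reached 0.019 FPKM at the low dose and 0.014 FPKM at the high dose, and Hdac7 was at 0.026 FPKM in control, 0.113 FPKM at the low dose and 0.040 FPKM at the high dose.

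Of the remaining zinc-dependent enzymes, Hdac6, the cytoplasmic deacetylase of tubulin, was at 1.06 FPKM in control, 1.83 FPKM at the low dose and 1.81 FPKM at the high dose (log2 ratios 0.45 and 0.44). Hdac10, a polyamine deacetylase, was at 0.026 FPKM in control, 0.23 FPKM at the low dose and 0.11 FPKM at the high dose, on no more than about 18 reads. Hdac11, the single class IV enzyme, had 0.10 FPKM in control, 2.05 FPKM at the low dose and 0.18 FPKM at the high dose. Its mean fell short of the expression filter, so it was not rated. A row listed at 0 in control and at the high dose held 1.68 FPKM of the low dose value, and its other row was at 0.10 FPKM in control, 0.37 FPKM at the low dose and 0.18 FPKM at the high dose.

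The 5 expressed sirtuins did not share a direction. The nuclear enzymes Sirt1 and Sirt6, which deacetylate histones and transcription factors, were higher in both exposed libraries than in control, short of the rule. Sirt1 was at 7.35 FPKM in control, 13.1 FPKM at the low dose and 13.9 FPKM at the high dose, with log2 ratios of 0.75 and 0.83. Of its 3 rows, those at 4.09 and 1.02 FPKM in control gave log2 ratios of 0.82 and 1.03 at the low dose and 0.84 and 1.09 at the high dose, and the third gave -0.12 and 0.09. Sirt1 is overlapped on the opposite strand over 13035 bases by the antisense gene Gm16145. Sirt6 was at 11.6 FPKM in control, 17.9 FPKM at the low dose and 17.6 FPKM at the high dose, with log2 ratios of 0.59 and 0.57 on a single row.

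Sirt2 and Sirt4 were lower at the high dose by the rule, and their values at the low dose lay between control and the high dose. Sirt4, a mitochondrial sirtuin that modifies metabolic enzymes, was at 6.53 FPKM in control, 2.87 FPKM at the low dose and 2.47 FPKM at the high dose, with log2 ratios of -0.96 and -1.12. Both of its rows were lower in each exposed library, the larger with 5.13 FPKM in control, 2.05 FPKM at the low dose and 2.17 FPKM at the high dose. Taken alone this row moved across the rule at both doses, with -1.01 with the low dose and -0.95 with the high dose. Sirt4 lies on chromosome 5, 115478010 to 115484725, minus strand. Sirt2, the mainly cytoplasmic sirtuin that deacetylates tubulin and, in mitosis, H4K16, was at 2.36 FPKM in control, 1.24 FPKM at the low dose and 0.27 FPKM at the high dose, with log2 ratios of -0.58 and -1.41. It lies on chromosome 7, 28766735 to 28788661, plus strand, and shares 778 bases with Nfkbib on the opposite strand. One of its rows was at 1.20 FPKM in control, 1.13 FPKM at the low dose and listed at 0 at the high dose, and the other at 1.16 FPKM in control, 0.11 FPKM at the low dose and 0.27 FPKM at the high dose.

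Sirt5, a mitochondrial desuccinylase, differed most between the doses among the sirtuins. It was at 3.65 FPKM in control, 6.51 FPKM at the low dose and 1.77 FPKM at the high dose, on 1 row at chromosome 13, 43365496 to 43395203, plus strand. The low dose library stood highest and the high dose library lowest. The log2 ratios to control were 0.69 and -0.75, both short of the rule, and high over low dose gave -1.44, past it. About 307 reads in control, 440 with the low dose and 135 with the high dose gave exact Poisson intervals of 3.25 to 4.08 FPKM in control, 5.92 to 7.15 FPKM at the low dose and 1.48 to 2.10 FPKM at the high dose, for counting error on rough read numbers only. Sirt3, the main mitochondrial deacetylase, was below the filter at 0.62 FPKM in control, 0.41 FPKM at the low dose and 1.01 FPKM at the high dose.

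The readers were the most abundant of the 3 roles. Their summed level was 152.6 FPKM in control, 167.1 FPKM at the low dose and 199.0 FPKM at the high dose. The 10 writers summed to 109.8 FPKM in control, 100.5 FPKM at the low dose and 107.5 FPKM at the high dose. The 17 erasers with rows summed to 56.4 FPKM in control, 76.7 FPKM at the low dose and 78.5 FPKM at the high dose. All rows of a library summed to 377415 FPKM in control, 424756 FPKM at the low dose and 393864 FPKM at the high dose. Brdt was at 64.6 FPKM in control, 61.2 FPKM at the low dose and 59.5 FPKM at the high dose, with log2 ratios of -0.08 and -0.12. Its mean level lay above that of 92.0% of expressed genes. Brdt had 2 rows that went opposite ways, the larger at 56.4 FPKM in control, 41.4 FPKM at the low dose and 43.8 FPKM at the high dose, and the smaller at 8.13 FPKM in control, 19.8 FPKM at the low dose and 15.7 FPKM at the high dose. The smaller row by itself had a log2 ratio of 1.19 with the low dose and 0.87 with the high dose.

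Brd3 was at 57.3 FPKM in control, 67.5 FPKM at the low dose and 96.6 FPKM at the high dose, with log2 ratios of 0.23 and 0.74. The high dose library stood apart from the others for this gene, and the largest of its 3 rows gave a like value at the high dose (0.82). Brd2 was at 30.7 FPKM in control, 38.5 FPKM at the low dose and 42.9 FPKM at the high dose, with log2 ratios of 0.32 and 0.47. Brd2 shares 3094 bases with H2-DMa on the opposite strand. None of these 3 readers passed the rule in any pair. Brd3 made up 37.6% of the summed FPKM of the 3 readers in control, 40.4% with the low dose and 48.5% with the high dose, and Brdt 42.3% in control, 36.6% with the low dose and 29.9% with the high dose.

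**Figure D3:**
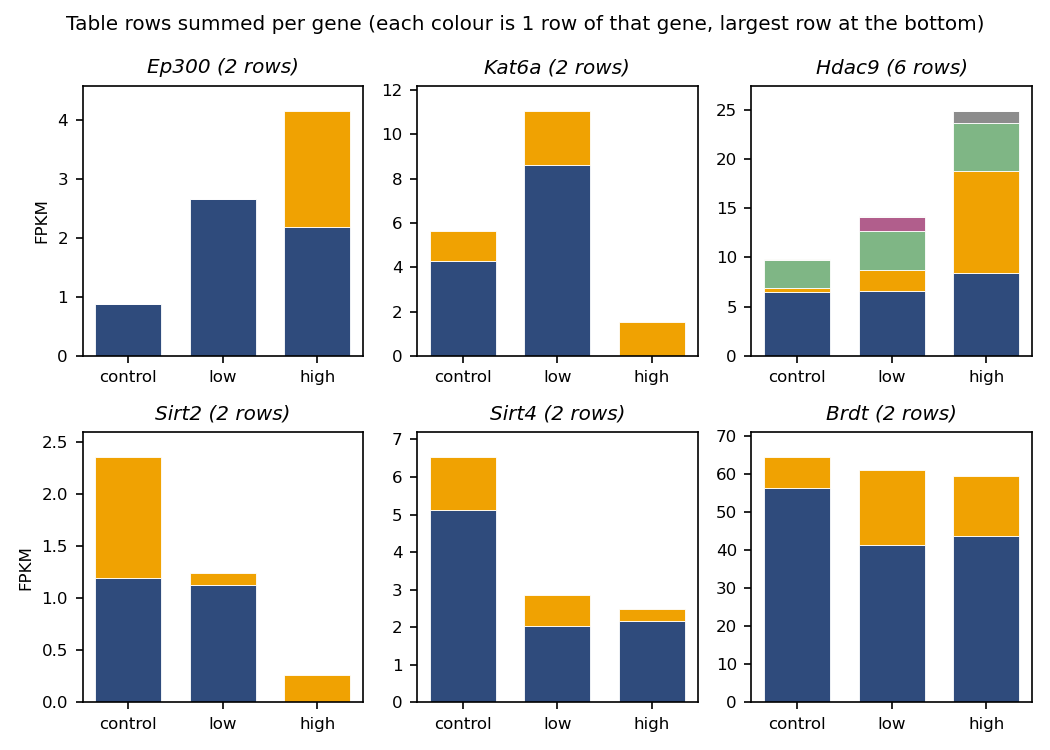
FPKM of the table rows that were summed for 6 genes with several rows, stacked, in each of the 3 libraries, with 1 colour per row. In Kat6a and Sirt2 the larger row is at 0 at the high dose, in Hdac9 most of the difference at the high dose lies in a smaller row, in Ep300 both rows are higher at the high dose than in control, and in Brdt the rows go opposite ways.

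The low dose library was set against control over the list to describe the smaller exposure. Of the 23 expressed genes 0 were higher and 1 (Kat7) was lower, beside 14.5% higher and 5.84% lower among all 12151 expressed genes. The share higher was below the background and the share lower (4.35%) near it. The median log2 ratio of the 23 genes was 0.45, against 0.17 over all expressed genes, and 16 of the 23 lay above that median. By role, the median was 0.63 for 9 writers, 0.46 for 11 erasers and 0.23 for 3 readers. These depended on the setting: the readers' median was 0.0094 after trimmed mean scaling and -0.11 with the length correction described below, and the writers' was 0.15 over genes averaging 5 FPKM or more and 0.23 with the length correction. With that correction the erasers' median was 0.12. Ratios ran from -1.35 (Kat7) to 0.96 (Ep300). Trimmed mean scaling brought the median of the list to 0.28 and that of all expressed genes to -0.01. Of all expressed genes past the rule at the low dose 71.3% were higher with values as deposited, and 58.2% after trimmed mean scaling.

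The high dose library was set against control in the same way. Here 2 of the 23 genes (Ep300 and Hdac9) were higher and 3 (Kat6a, Sirt2 and Sirt4) were lower, beside 9.51% higher and 5.18% lower among all expressed genes. The share higher (8.70%) was near the background, and the share lower (13.0%) above it, with the larger row listed at 0 at the high dose for Kat6a and Sirt2. The median log2 ratio of the list was 0.14, against 0.08 over all expressed genes, and 12 of the 23 lay above that median. It was near 0 for writers (0.0048), 0.14 for erasers and 0.47 for readers. The erasers' median was 0.70 over genes averaging 5 FPKM or more and 0.0044 with the length correction, the writers' -0.10 at that filter, and the readers' 0.31 with the correction. Both comparisons used the single control library. Their ratios were both above 0 for 13 genes, both below 0 for 7 and of opposite sign for Hdac3, Kat6a and Sirt5.

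The high dose library was also set against the low dose library. Of the 23 genes 0 were higher and 2 (Kat6a and Sirt5, 8.70%) were lower, beside 6.10% higher and 9.73% lower among all expressed genes. The median of the list was -0.04, against -0.07 over all expressed genes. Hdac9 had the largest positive ratio (0.77), and the genes with the closest levels in the exposed libraries included Hdac6, Kat6b, Sirt6 and Hdac4, with ratios between -0.04 and -0.01.

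**Figure D4:**
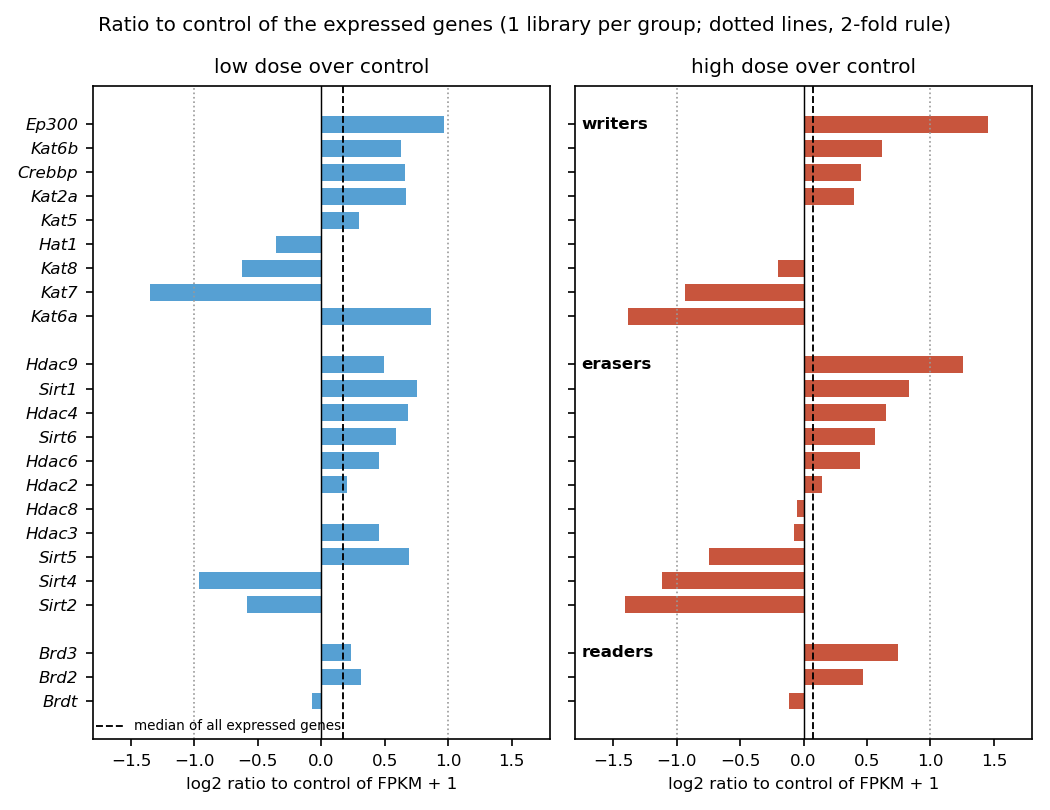
Log2 ratio to control of FPKM + 1 for the 23 expressed genes at the low dose (left) and the high dose (right), by role. Dotted lines mark the rule (log2 ratios of 1 and -1, which is 2-fold in FPKM + 1 and not in FPKM). The dashed line marks the median of all expressed genes (0.17 at the low dose, 0.08 at the high dose). Kat7 passes at the low dose, and Ep300, Hdac9, Kat6a, Sirt2 and Sirt4 pass at the high dose.

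Transcript length moved with these ratios. Over all expressed genes with a length, the median log2 ratio at the low dose was -0.14 in the second shortest of 10 length groups (717 to 1251 bases) and 0.43 in the longest of them (6549 bases and more). At the high dose the medians in these groups were -0.11 and 0.25. The shortest group (50 to 717 bases) did not follow this order, with 0.07 (low dose) and 0.04 (high dose). The expressed genes of the list were long, with a median of 3585 bases against 2857 over all genes, and 6 of the 23 (Hdac4, Hdac9, Kat6a, Kat6b, Ep300 and Crebbp) fell in the longest group. With the median of its own length group taken from each gene, the median of the list was 0.12 with the low dose and 0.05 with the high dose. So corrected, 13 of 23 genes lay above 0 at the low dose and 14 of 23 at the high dose. Kat7 then stood at -1.65 with the low dose and -1.06 with the high dose, and Ep300 at 0.53 and 1.21. The part of RNA length or RNA quality in these values was not tested.

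**Figure D5:**
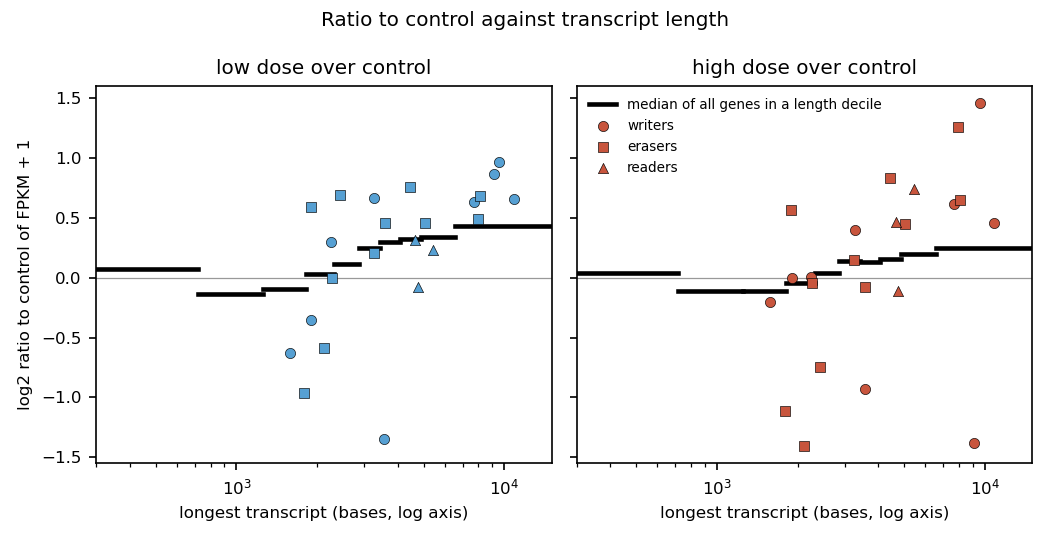
Log2 ratio to control of FPKM + 1 against the longest annotated transcript (log axis) for the 23 expressed genes at the low dose (left) and the high dose (right), with bars for the median of all genes in each of 10 length groups. The bars are lowest in the second and the third group and highest in the longest, and the shortest group stands above both of these, with Kat7 far below at the low dose and Kat6a at the high dose.

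Catalytic subunits act within larger complexes, whose other subunits were taken from lists fixed by name. Of 28 expressed partners of the deacetylases, 3 were higher and 1 was lower at the low dose, and 2 were higher and 0 lower at the high dose, with medians of 0.22 and 0.12. Gatad2a, a subunit of the NuRD complex of Hdac1 and Hdac2, was at 1.82 FPKM in control, 15.5 FPKM at the low dose and 15.9 FPKM at the high dose, with log2 ratios of 2.54 and 2.58 on a single row. Mier1, a corepressor that binds the same enzymes, was at 0.51 FPKM in control, 8.65 FPKM at the low dose and 4.46 FPKM at the high dose (2.68 and 1.86), chiefly in 1 of its 2 rows. Ncor1, the corepressor that activates Hdac3, was at 3.16 FPKM in control, 10.5 FPKM at the low dose and 3.47 FPKM at the high dose. A row listed at 0 in the other libraries held 6.13 FPKM of the low dose value. Mta3, also of NuRD, was at 16.9 FPKM in control, 7.83 FPKM at the low dose and 14.2 FPKM at the high dose (log2 ratio -1.02 at the low dose).

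Partners of Kat2a in SAGA and ATAC (19 expressed) held 1 gene higher and 1 lower at the low dose, and 0 higher and 1 lower at the high dose, with medians of -0.13 and 0.23. Usp22, the deubiquitinase of SAGA, was at 0.52 FPKM in control, 2.08 FPKM at the low dose and 1.47 FPKM at the high dose. Tada3, an adaptor subunit, was at 3.38 FPKM in control, 1.16 FPKM at the low dose and 3.26 FPKM at the high dose, and Taf12, a histone-fold subunit, at 33.9 FPKM in control, 26.0 FPKM at the low dose and 15.8 FPKM at the high dose. Each of these 3 lay close to the rule, with log2 ratios of 1.01, -1.02 and -1.05 in the library named for it (low dose for Usp22 and Tada3, high dose for Taf12).

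Partners of the MYST enzymes (28 expressed) held 4 genes higher and 0 lower at the low dose, and 2 higher and 1 lower at the high dose, with medians of 0.24 and -0.003. Brd1, a scaffold of Kat7 and Kat6a complexes, was at 1.73 FPKM in control, 7.05 FPKM at the low dose and 5.75 FPKM at the high dose, with log2 ratios of 1.56 and 1.31. Kansl2, of the NSL complex of Kat8, was at 1.83 FPKM in control, 6.51 FPKM at the low dose and 5.59 FPKM at the high dose (1.41 and 1.22). Msl2, of the MSL complex of Kat8, was at 0.61 FPKM in control, 5.04 FPKM at the low dose and 0.039 FPKM at the high dose. Mcrs1, also of NSL, was at 11.5 FPKM in control, 15.1 FPKM at the low dose and 3.43 FPKM at the high dose (log2 ratio -1.50 at the high dose). The fourth gene higher at the low dose, Ing1, named after its values were seen, was at 1.12 FPKM in control, 3.48 FPKM at the low dose and 2.40 FPKM at the high dose.

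Other proteins that bind acetyl-lysine (24 expressed) held 2 genes higher and 0 lower at the low dose, and 1 higher and 0 lower at the high dose, with medians of 0.26 and 0.06. Cecr2, a bromodomain partner of chromatin remodellers, was at 3.50 FPKM in control, 14.3 FPKM at the low dose and 2.69 FPKM at the high dose (1.77 at the low dose). Baz2b, another bromodomain protein of remodellers, was at 4.06 FPKM in control, 7.13 FPKM at the low dose and 16.1 FPKM at the high dose. Of its high dose value 11.0 FPKM came from 1 of 4 rows, at 0.90 FPKM in control and 0.99 FPKM at the low dose. In these 4 partner lists the shares of genes higher ran from 5.26 to 14.3% at the low dose, beside 14.5% of all expressed genes. At the high dose they ran from 0 to 7.14%, beside 9.51%. The largest, 14.3% for MYST partners, was near the background. The shares lower ran from 0 to 5.26% at both doses, beside 5.84% (low dose) and 5.18% (high dose) of all expressed genes. No list held more than 4 genes higher or 1 lower against control, so these shares are a description only. Some medians turned with the setting. At a mean of at least 5 FPKM the high dose median was -0.53 for SAGA and ATAC partners and -0.07 for deacetylase partners, and the largest row per gene gave -0.04 for SAGA and ATAC. With the length correction the high dose median of deacetylase partners was -0.06, and the other acetyl-lysine readers stood at -0.14 (low dose) and -0.15 (high dose). Trimmed mean scaling brought their low dose median to 0.095, that of deacetylase partners to 0.024 and that of MYST partners to 0.047.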

How the data were processed

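For each library the authors deposited 1 table of FPKM values by gene, with identifiers and names, per the file headers. HISAT2, StringTie and the build mm10 are named in the submitters' processing notes. Versions, annotation, strand setting and single or paired reads are not stated in the sources used here. Tables were joined by identifier, 61 identifiers with names that differ between tables were left out, rows absent from a table were taken as 0, and rows were summed per gene name. A value of exactly 0 may be a failed estimate. Depth was approximated from genes with 1 annotated transcript, by taking the most crowded narrow range of low FPKM times length as 1 read (0.0288, 0.0359 and 0.0318 FPKM over 1 kb in control, low and high dose, or about 34700000, 27900000 and 31500000 reads). Of the 1159, 848 and 1016 values worth up to 10 reads, 41.7, 32.8 and 35.5% lay within 0.05 of a whole number, so reads were not recovered and no count test was run. Read numbers of genes with 1 row assume the longest transcript and are rough.

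Gene models came from GENCODE M21 (GRCm38, equal to mm10), and 96.4% of expressed names had a length. Every gene of the list is named. From each partner list up to 3 genes past the rule in each direction at each dose are named. A gene that this rule names is not reported here. The genes and lists were chosen with earlier results of these data known. The script that applies the rule was tested on simulated data with known folds. Alternatives were pseudocounts of 0.1 and 0.5 FPKM, other filters, thresholds and scalings, other uses of rows, and a length correction. Python 3.11.15, pandas 2.3.3, numpy 2.4.6, scipy 1.17.1 and matplotlib 3.10.9 were used.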

Additional observations from a re-analysis of the deposited data

How the results depend on the processing

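No paired analysis was possible because each group had 1 library. For the low dose against control (0 genes of the list higher, 1 lower, median 0.45), a pseudocount of 0.1 FPKM gave 2 higher and 2 lower, and one of 0.5 FPKM gave 1 higher and 2 lower. Without a filter 1 was higher and the median was 0.28, and a mean of at least 5 FPKM gave 0 lower and 0.32. Scaling to the same sum, trimmed mean and upper quartile scaling each gave 2 lower, with medians of 0.33, 0.28 and 0.28. The largest row per gene gave 2 lower and 0.26, and the length correction a median of 0.12. A log2 rule of 0.5 gave 9 higher and 4 lower, and one of 1.5 gave 0 lower. The second gene lower was Sirt4 under 6 of these settings. Over all 12151 expressed genes, a pseudocount of 0.1 FPKM gave 2427 higher and 1007 lower at the low dose. One of 0.5 FPKM gave 2068 and 859, and a log2 rule of 0.5 gave 3770 and 1891.

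For the high dose against control (2 higher, 3 lower, median 0.14), a pseudocount of 0.1 FPKM gave 5 lower, and a mean of at least 5 FPKM 1 higher, 1 lower and a median of 0.46. The largest row per gene gave 0 higher and 1 lower, rows listed in every table gave 1 higher, and rows above 0 in all 3 libraries 1 higher, 1 lower and 0.27. Upper quartile scaling gave a median of 0.041. A log2 rule of 0.5 gave 7 higher and 5 lower, and one of 1.5 gave 0 higher and 0 lower. Kat6a at the high dose turned from -1.38 to 0.13 on rows above 0 in all 3 libraries, which leave out its larger row.

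For high against low dose (0 higher, 2 lower, median -0.04), a mean of at least 5 FPKM gave 1 lower and 0.080, rows above 0 in all 3 libraries 1 lower, and trimmed mean scaling, upper quartile scaling and the length correction medians of 0.064, 0.061 and 0.068. A log2 rule of 0.5 gave 2 higher and 4 lower, and one of 1.5 gave 1 lower. Kat7 at the low dose stayed past the log2 rule of 1 under each alternative that rated it, from -1.88 to -1.35. Causes of these shifts were not tested beyond what each setting leaves out. Over all genes, the counts higher and lower at the low dose were 1766 and 710, against 968 and 373 at a mean of at least 5 FPKM, 3770 and 1891 at a log2 rule of 0.5 and 904 and 344 at 1.5. At the high dose they were 1155 and 629, against 647 and 343, 2783 and 1812, and 584 and 314 under the same settings, and a pseudocount of 0.1 FPKM gave 1021 lower. For high against low dose they were 741 and 1182, against 340 and 611, 1647 and 2576, and 417 and 614. Counts at a mean of at least 5 FPKM are over fewer genes than the others. No replicate could be left out. Kat2b rested on about 2 reads in control.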

Other observations

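The genes that supply the substrate of acetyltransferases and the cofactor of sirtuins were described from a list of 20, of which 14 were expressed. At the low dose 0 were higher and 1 was lower, and at the high dose 0 were higher and 2 were lower, with medians of 0.11 and 0.02. The share of the list that was lower was 7.14% at the low dose, against 5.84% of all expressed genes, and 14.3% at the high dose, against 5.18%. The shares of all expressed genes that were higher were 14.5% (low dose) and 9.51% (high dose). The low dose median turned to -0.0037 after trimmed mean scaling and to -0.051 with the length correction. Acss1, the mitochondrial enzyme that makes acetyl-CoA from acetate, was at 9.85 FPKM in control, 0.49 FPKM at the low dose and 2.34 FPKM at the high dose, with log2 ratios to control of -2.86 and -1.70. Slc25a1, the mitochondrial citrate carrier, was at 3.88 FPKM in control, 5.66 FPKM at the low dose and 0.71 FPKM at the high dose (log2 ratio -1.51 at the high dose). Acly, Acss2, Nampt and Esco2 were named after their values were seen. Acly, which splits citrate to acetyl-CoA in the cytosol, was at 2.27 FPKM in control, 2.93 FPKM at the low dose and 3.09 FPKM at the high dose, and Acss2 was at or below 0.15 FPKM in each library. Nampt, the rate-limiting enzyme of NAD salvage, was at 5.09 FPKM in control, 8.48 FPKM at the low dose and 4.12 FPKM at the high dose.

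Of 12 expressed genes among other acetyltransferases and coactivators, 1 was higher (8.33%) and 0 were lower at either dose. The background shares were 14.5% (low dose) and 9.51% (high dose) for higher, and 5.84% and 5.18% for lower. At the high dose the share higher was near its background, and with 12 genes these shares are a description only. The medians of the list were 0.44 and 0.27. With the length correction both medians were 0.06 to 0.07. Ncoa1, a coactivator of nuclear receptors, was at 7.19 FPKM in control, 16.0 FPKM at the low dose and 27.9 FPKM at the high dose, with log2 ratios of 1.06 and 1.82. The largest of its 3 rows was at 5.33 FPKM in control, 13.1 FPKM at the low dose and 23.7 FPKM at the high dose. Esco2, the cohesin acetyltransferase, was at 79.4 FPKM in control, 70.0 FPKM at the low dose and 74.2 FPKM at the high dose.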
